A study of Rattus norvegicus with 6 samples.

Results

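The genes described here were the cytochrome P450 (Cyp) genes of rat left ventricle as a 1-colour Agilent array measured them. A gene was taken as a member when the array's name for it began with Cyp followed by a family number, a subfamily letter and a gene number, control spots aside. This gave 76 of the 26456 gene names on the array, covered by 93 probes of 60 bases each. The rule leaves out 10 further names that the array describes as P450s, such as Cyp51, and P450 enzymes named for their reaction, such as Ptgis and Tbxas1. RNA came from the left ventricle of 6 male rats, with 1 array per rat. The 3 OLETF rats, aged 27, 28 and 27 weeks, belong to an inbred strain that overeats, becomes obese and develops type 2 diabetes, and that lacks a working Cckar gene. The 3 LETO rats, aged 27, 28 and 28 weeks, belong to the non-diabetic control strain, which is not isogenic with OLETF, so that diabetes, body weight and strain background cannot be told apart. The labels name no other treatment in either group.

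Cytochrome P450 enzymes are heme proteins that insert an oxygen atom into fatty acids, steroids, bile acids, vitamins and drugs, with electrons handed on by partner proteins. Most drug-metabolising members are known from liver. In the heart the family is known for turning arachidonic acid into epoxides and hydroxylated acids that act on vessels and muscle, and for clearing retinoic acid.

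The arrays were alike in depth. The share of spots well above background ran from 75.5% to 79.8%, no spot was saturated, and the 75th percentile ran from 1271 to 1827 intensity units. The first principal component (42.8% of the variance) separated the strains and the second (23.7%) set LETO 1 apart. LETO 1 to 3 and OLETF 1 shared a slide, and OLETF 2 and 3 were on another. Results below were also computed without LETO 1, which gave no called P450 gene. All 10 markers each of cardiomyocytes, endothelium and fibroblasts were tested with none called. Of the 12 marker lists 2 genes were called, Ttr of the hepatocyte list (lower in OLETF) and Slc4a1 of the red blood cell list (higher). The other tested genes of the latter list went both ways. Bpgm was higher in OLETF by 0.46 in log2, and the globins Hba-a2 and Hbb were at -0.94 and -2.22, with a list median of -0.24.

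A large share of the family gave no clear signal in the ventricle, and no member that did passed the test between strains. A gene counted as well above background on an array when the scanner software flagged the spots of its probe so. Of the 76 genes, 36 were well above background on all 6 arrays, 3 on all 3 arrays of 1 strain only, 9 on some arrays, and 28 on none. The 39 genes of the first 2 classes, 51.3% of the family, were tested, and 71.1% of all gene names met the same requirement. Cyp4b1, Cyp2j4 and Cyp1b1, P450s known from heart and vessels, were on all 6 arrays. The share seen on no array was 36.8% in the family and 21.0% over all gene names. None of the 39 tested genes differed between the strains at an adjusted p below 0.05 (limma, Benjamini-Hochberg over all 18816 genes tested), where 2.55% of all genes did, 1.5% higher and 1.05% lower in OLETF. At an unadjusted p below 0.05, 2 P450 genes were higher (Cyp4v3 and Cyp2t1) and 3 were lower (Cyp26b1, Cyp2w1 and Cyp2j3), and the share of all genes was 6.21% in each direction. The members' shares, 5.13% higher and 7.69% lower, are near that background.

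Some probes are printed here because the readings below rest on them. The probe of Cyp2j3, 1 of 2 tested P450 genes whose strains did not overlap, covers the 30 bases, in capitals, that encode the signature around the heme-binding cysteine common to the family, and this signature was found in 1 of the 93 probes. A second Cyp2j3 probe lies upstream in the same transcript. The probes of Cyp2a1 and Cyp2a2 overlap by 50 bases of which 44 are identical, with the differing bases in capitals, so that either may also capture the other's transcript. The probes that the array gives to Cyp2b15 overlap by 58 bases of which 52 are identical, again with the differing bases in capitals, and they gave different readings. Cyp2e1, Cyp2w1, Cyp2t1 and Cyp8b1 are shown because their values are given array by array below. All sequences are from the scanner files and run 5′ to 3′.
Cyp2j3: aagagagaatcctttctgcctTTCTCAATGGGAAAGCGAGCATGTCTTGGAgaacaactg
Cyp2j3, second probe: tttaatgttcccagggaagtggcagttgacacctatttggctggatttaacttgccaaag
Cyp2a1: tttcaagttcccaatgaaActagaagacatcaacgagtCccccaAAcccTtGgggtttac
Cyp2a2: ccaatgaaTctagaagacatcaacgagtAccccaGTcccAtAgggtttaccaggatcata
Cyp2b15, brighter probe: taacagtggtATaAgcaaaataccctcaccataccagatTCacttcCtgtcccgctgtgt
Cyp2b15, dimmer probe: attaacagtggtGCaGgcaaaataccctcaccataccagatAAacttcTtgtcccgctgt
Cyp2e1: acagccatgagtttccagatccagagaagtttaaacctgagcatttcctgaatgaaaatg
Cyp2w1: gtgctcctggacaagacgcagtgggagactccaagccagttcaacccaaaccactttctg
Cyp2t1: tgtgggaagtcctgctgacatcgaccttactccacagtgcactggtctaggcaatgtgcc
Cyp8b1: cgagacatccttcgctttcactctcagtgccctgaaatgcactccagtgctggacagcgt
In the rn4 build that the files use, the first Cyp2j3 probe lies at chr5:116744736-116744795 on the minus strand. The Cyp2a1 and Cyp2a2 probes lie at chr1:82019991-82020050 and chr1:82063430-82063489 on the plus strand. The brighter Cyp2b15 probe lies at chr1:81879199-81879258 and the dimmer at chr1:81852298-81852357, both on the plus strand. Cyp2e1 is read at chr1:200927736-200927795 (plus), Cyp2w1 at chr12:15792810-15792869 (minus), Cyp2t1 at chr1:82233051-82233110 (plus) and Cyp8b1 at chr8:127019903-127019962 (plus). No rn4 gene models were used here, so exon numbers are not given.

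**Figure D1:**
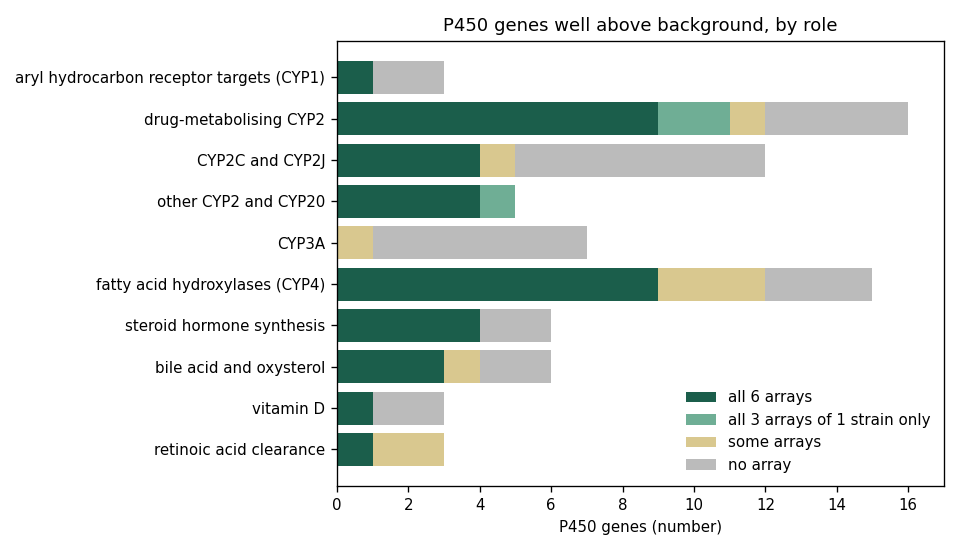
Number of P450 genes (horizontal axis) in each role group (vertical axis), split by the arrays on which the gene was well above background. CYP3A is the group with no gene on all 6 arrays, while 9 of 16 drug-metabolising CYP2 genes and 9 of 15 CYP4 genes were on all 6.

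The genes not detected on any array included many known from liver, kidney, adrenal gland and brain. Of the 7 CYP3A genes, the main drug-metabolising P450s of liver, 6 were on no array, and Cyp3a23/3a1 was on 1 LETO array. Cyp1a1 and Cyp1a2, the classical targets of the aryl hydrocarbon receptor, were on none. So were 7 of the 12 CYP2C and CYP2J genes (Cyp2c7, Cyp2c12, Cyp2c13, Cyp2c22, Cyp2c23, Cyp2c37 and Cyp2j16), and Cyp2c23 is the main arachidonic acid epoxygenase of rat kidney. Cyp11b1 and Cyp11b2, which make corticosterone and aldosterone in the adrenal cortex, Cyp7a1, the rate-limiting enzyme of bile acid synthesis, and Cyp46a1, the cholesterol 24-hydroxylase of brain, were on none. Cyp24a1 and Cyp2r1 of the vitamin D pathway, Cyp2a3, Cyp2b21, Cyp2d2 and Cyp2g1, and Cyp4a3, Cyp4f4 and Cyp4f39 completed the set with the CYP3A genes Cyp3a2, Cyp3a9, Cyp3a18, Cyp3a62, Cyp3a73 and Cyp3a85-ps. A gene on no array has only an upper bound on its signal, and no difference is given for it.

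The 9 genes seen on some arrays were not tested. Cyp26a1, a retinoic acid hydroxylase, was above background on 2 OLETF arrays and no LETO array, and Cyp26c1 on 1 LETO and 2 OLETF arrays. Cyp4a2, a fatty acid hydroxylase, was on 1 LETO and 2 OLETF arrays, and Cyp2j10 on 2 of each strain. Cyp2f4, Cyp39a1, Cyp4f18 and Cyp4x1 were each on 1 LETO array. Values are given below as log2 of the processed signal minus the 75th percentile of the array, so that 0 is the level of that percentile. Of Cyp26a1 the signals were all close to the detection limit, between -6.46 and -5.99 in LETO and between -6.08 and -5.84 in OLETF.

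Retinoic acid clearance held the smallest p of the family. Cyp26b1 encodes a hydroxylase that degrades retinoic acid. LETO 1 to 3 stood at -1.15, -1.07 and -0.46, OLETF 1 to 3 at -2.47, -1.56 and -2.20. All 3 OLETF values lay below all 3 LETO values. The difference, OLETF minus LETO throughout, was -1.18 ± 0.27 (SE, 95% confidence interval -1.82 to -0.54, n = 3 per strain), a 2.27-fold higher mean in LETO, with an adjusted p of 0.0853 (limma), which misses the threshold. It was -1.57 within the slide that held the LETO arrays and OLETF 1. The probe lies at chr4:118735314-118735373 (rn4, minus strand) and is the gene's sole probe.

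Other genes of retinoid handling were read beside it. Of 15 listed, 14 were on the array, 10 were tested and none was called, and the median difference of the tested was -0.28. The tested include Rbp4, above background on 3 LETO and 2 OLETF arrays and so kept through LETO alone, which favours a negative value. The median is therefore not comparable with that of genes on all 6 arrays. Lrat esterifies retinol for storage. LETO rats gave -2.17, -1.50 and -2.21, OLETF rats -2.69, -3.59 and -3.05, with no overlap, and the difference was -1.15 ± 0.27 (SE, adjusted p = 0.0952). Aldh1a2, which makes retinoic acid, stood at -4.08, -4.28 and -3.97 in LETO against -4.42, -4.86 and -4.92 in OLETF, again with no overlap, and differed by -0.62 ± 0.16 (SE, adjusted p = 0.112). Lrat and Aldh1a2 were the listed genes with the smallest p, and 8.43% of all tested genes were lower in OLETF without overlap. In the other direction, Aldh1a1 and Dhrs3 of the list differed by 0.64 and 0.14, with overlap and no call. With array weights Lrat (adjusted p = 0.0405) and Aldh1a2 (0.0234) passed, and Aldh1a2 also passed without OLETF 1 (0.0483). Within the shared slide the differences were -0.73 for Lrat and -0.31 for Aldh1a2, and Aldh1a2 was at -0.25 after normexp correction and quantile normalization. In bulk tissue, fewer cells of a type and less RNA per cell cannot be told apart.

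**Figure D2:**
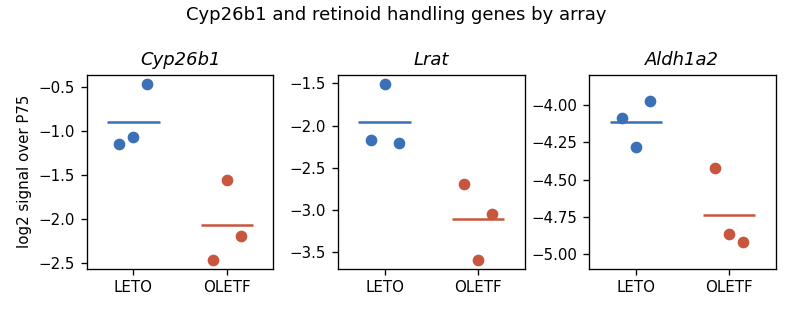
Log2 signal minus the array's 75th percentile, P75 (vertical axis, a separate range in each panel) of Cyp26b1, Lrat and Aldh1a2 in 3 LETO and 3 OLETF ventricles, 1 point per array, with the strain mean as a line. In each panel every OLETF point lies below every LETO point. Lrat and Aldh1a2 are shown as the retinoid handling genes with the smallest p.

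The CYP2C and CYP2J genes include the arachidonic acid epoxygenases. Cyp2j3 and Cyp2j4 are the epoxygenases known from rat heart and muscle. Cyp2j3 read -2.79, -2.86 and -2.83 in LETO against -3.04, -3.08 and -2.95 in OLETF, so that the strains did not overlap but lay close. The difference was -0.20 ± 0.08 (SE, adjusted p = 0.378). Its second probe differed by -0.58 and was above background on 3 LETO and 2 OLETF arrays, so that it was kept through LETO alone. Both probes printed above gave a lower OLETF mean and neither passed. Cyp2j4 read -0.06, 0.51 and 0.26 in LETO against 0.35, 0.29 and 0.35 in OLETF. The OLETF values lay inside the LETO range, and the difference was 0.09 ± 0.15 (SE, 95% confidence interval -0.25 to 0.44). Its second probe read -1.15, -0.95 and -0.95 in LETO against -0.84, -0.87 and -0.85 in OLETF, with no overlap and a difference of 0.16 (adjusted p = 0.580 with every probe tested). Cyp2c11, the male-specific P450 of rat liver, differed by -0.16, and Cyp2c79 by 0.05, with a second Cyp2c79 probe on no array.

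Genes known for drug and small-molecule metabolism made up the largest group, with 11 of 16 tested, a median of 0.14 over the 9 on all 6 arrays, and no call. Cyp2e1, which oxidises ethanol and acetone, had the widest interval of the family. It stood at -1.90, -0.24 and -0.44 in LETO against -1.02, -3.24 and -2.22 in OLETF. LETO 1 was low and OLETF 1 was high for their strains, and the strains overlapped. The difference was -1.30 ± 0.63 (SE, 95% confidence interval -2.79 to 0.18, adjusted p = 0.485). It was -0.76 without OLETF 2, -1.82 without LETO 1, and -0.16 within the shared slide.

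Some genes known from adipose tissue varied between the same arrays. Adipoq, the adipocyte hormone adiponectin, was well above background in LETO 2 alone, at -3.50, and read between -8.62 and -7.94 on the other 5 arrays. Lep, the adipocyte hormone leptin, was well above background in OLETF 2 alone, at -5.24, the array where Cyp2e1 was lowest. Retn, or resistin, read -5.67, -3.44 and -4.97 in LETO against -5.30, -5.33 and -5.17 in OLETF, where OLETF 2 was not well above background. Rbp4, the plasma carrier of retinol, chosen after its values were seen, read -5.37, -3.16 and -4.41 in LETO against -5.38, -7.77 and -6.05 in OLETF, with OLETF 2 again below detection. LETO 2 was highest and OLETF 2 lowest for both Cyp2e1 and Rbp4. Myl7 and Sln of the atrium marker list had the same extremes. Myl7 read 2.96, 5.15 and 0.54 in LETO against 3.85, -0.72 and -0.57 in OLETF. Sln read -4.04, 1.68 and -0.23 in LETO against 1.25, -4.05 and -1.77 in OLETF. The other tested atrium markers did not share both extremes, and none of the list was called. Of 10 adipocyte markers, 9 were on the array and 5 were tested, with none called. Their summed signal was 5.0 to 5.1 on the log2 scale in LETO and 5.2 to 5.3 in OLETF. Most of it came from Lpl and Fabp4, and Cidec was on no array. Fabp4 and Lpl, which take up fatty acids in fat and muscle, were each higher in OLETF without overlap, by 0.20 and 0.20, and neither was called. Lipe and Cfd, also tested, differed by -0.09 and -0.003, and their strains overlapped. Of 10 hepatocyte markers, Alb, Apoa1, Apob, Fga and Fgb were on no array, and Ttr, Tf, Serpina1, Hp and Ahsg were on all 6. Ttr, a carrier of thyroid hormone and retinol-bound Rbp4, was lower in OLETF, with a difference of -0.85 (adjusted p = 0.0300). Hp, or haptoglobin, had a difference of -0.43 (adjusted p = 0.111) with no overlap. The summed hepatocyte signal, mostly that of Ttr and Tf, was 3.01 to 3.27 in LETO and 2.49 to 2.79 in OLETF. The part of adipose, liver or atrial transcripts in the Cyp2e1 values was not tested.

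**Figure D3:**
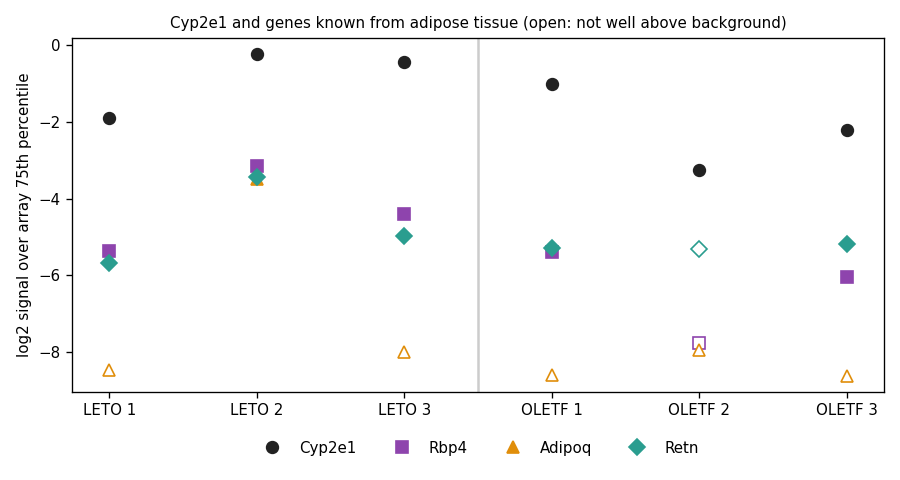
Log2 signal minus the array's 75th percentile (vertical axis) of Cyp2e1, Rbp4, Adipoq and Retn on each of the 6 arrays (horizontal axis), with open symbols where the probe was not well above background. Cyp2e1 and Rbp4 were both highest in LETO 2 and lowest in OLETF 2, and Adipoq was above background in LETO 2 alone. Rbp4 was chosen after its values were seen. Among adipocyte markers not shown, Lep was above background in OLETF 2 alone, and Fabp4 and Lpl were higher in OLETF. Heights of different genes come from different probes and cannot be compared.

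The CYP2A, CYP2B and CYP2D genes, neighbours in 2 of the family's gene clusters, held no call, and the values that follow are differences of strain means. Cyp2d1, Cyp2d4 and Cyp2d5 differed by 0.14, 0.20 and 0.15, and Cyp2d3, above background on 2 LETO and 3 OLETF arrays, by -0.06. The probes of Cyp2d1 and Cyp2d5 overlap by 58 bases of which 56 are identical, so their values are not separate readings. Cyp2a1 and Cyp2a2 differed by 0.06 and -0.15, with the limit on their probes given above. Cyp2b3 differed by 0.42 ± 0.25 (SE, adjusted p = 0.625), and read -3.97, -3.48 and -3.49 in LETO against -3.54, -2.67 and -3.46 in OLETF, so that OLETF 2 stood apart from the rest. It was 0.15 without OLETF 2, 0.11 within the shared slide and 0.07 at the second probe of the gene. Cyp2b12 differed by 0.31 and its second probe by -0.36, and Cyp2b2, on 2 LETO and 3 OLETF arrays, by -0.23 with a second probe at 0.39. Both pairs of probes therefore disagreed in sign. The second Cyp2b12 probe was on 3 LETO and 2 OLETF arrays and the second Cyp2b2 probe on 1 LETO and 3 OLETF arrays. Each was kept through the strain where it read higher, so the filter favoured its sign. The Cyp2b12 probes overlap by 52 bases of which 44 are identical. The brighter Cyp2b15 probe differed by 0.03 and was on all 6 arrays, while the dimmer was on 2.

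The remaining CYP2 genes and Cyp20a1 have few known substrates. Cyp2w1, known from fetal gut and tumours, read -4.51, -5.26 and -4.66 in LETO against -5.78, -5.19 and -5.77 in OLETF. LETO 2 and OLETF 2 crossed, and the difference was -0.77 ± 0.24 (SE, 95% confidence interval -1.34 to -0.21, adjusted p = 0.211). After normexp background correction and quantile normalization it was -0.16. The OLETF signals of Cyp2w1 lay near background, not far above those of Cyp26a1. Cyp2t1 read -1.77, -2.18 and -2.28 in LETO against -1.62, -1.31 and -1.82 in OLETF. LETO 1 lay among the OLETF arrays, and the difference was 0.49 ± 0.18 (SE, adjusted p = 0.303). Cyp2s1 differed by 0.00 and had the value of each strain near 0.55, and its other 2 probes read far lower, between -4.60 and -3.54. Cyp2u1, a fatty acid hydroxylase on 3 LETO and 2 OLETF arrays, differed by -0.16, and Cyp20a1 by 0.17. The interval of Cyp2s1 ran from -0.21 to 0.21.

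**Figure D4:**
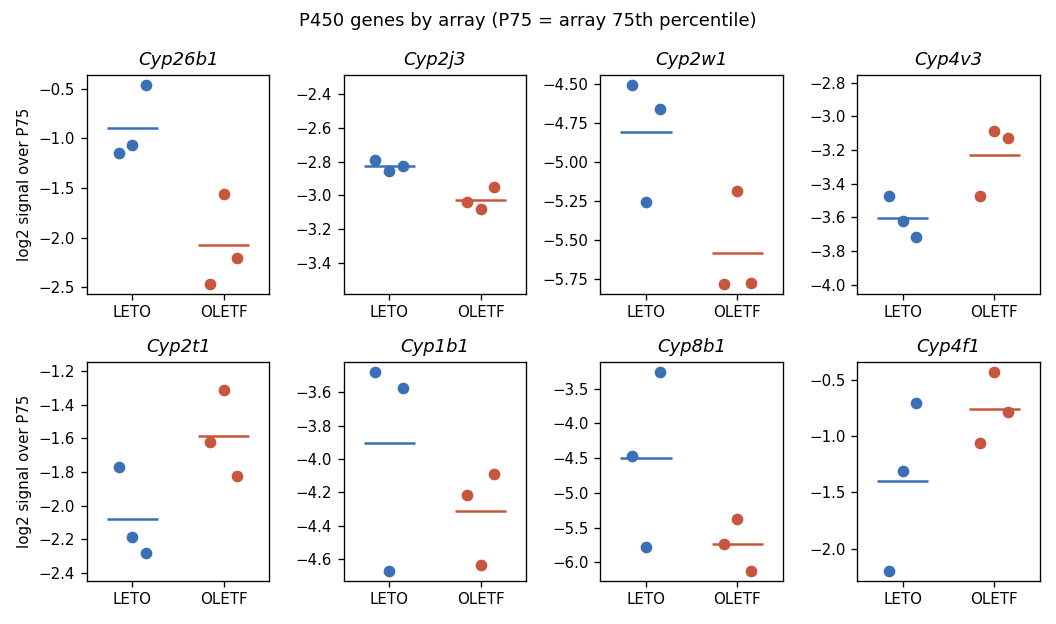
Log2 signal minus the array's 75th percentile, P75 (vertical axis, a separate range in each panel) of 8 P450 genes in 3 LETO and 3 OLETF ventricles, 1 point per array, with the strain mean as a line. The strains do not overlap for Cyp26b1 and Cyp2j3 and overlap for the other 6 genes.

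The CYP4 enzymes hydroxylate fatty acids at or near the end of the chain, and those acting on arachidonic acid make the vasoconstrictor 20-HETE. Of 15 genes, 9 were tested, 2 with a positive and 7 with a negative difference, a median of -0.07, and no call. Cyp4b1 read -1.41, -1.43 and -1.67 in LETO against -1.59, -1.66 and -1.88 in OLETF. The strains overlapped in part, and the difference was -0.21 ± 0.12 (SE, adjusted p = 0.587), and -0.09 within the shared slide. Cyp4f1 read -2.19, -1.31 and -0.70 in LETO against -1.06, -0.43 and -0.79 in OLETF. LETO 1 was the lowest of the 6, and the difference of 0.64 ± 0.36 (SE, adjusted p = 0.587) was 0.25 without it and 0.99 without LETO 3. Cyp4f5, Cyp4f6, Cyp4f17 and Cyp4f40 of the same cluster, at chr7:13072439-13609164, differed by -0.14, -0.10, -0.24 and -0.06. The sign of Cyp4f1 was thus opposite to that of its 4 tested neighbours, and no test of that contrast was made.

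Cyp4v3, an omega-hydroxylase of medium-chain fatty acids, read -3.47, -3.62 and -3.72 in LETO against -3.47, -3.09 and -3.13 in OLETF. OLETF 1 stood level with LETO 1. The difference was 0.37 ± 0.13 (SE, adjusted p = 0.278), 0.51 at its second probe, and 0.13 within the shared slide. Cyp4a1, the classical PPAR-alpha target of liver, differed by -0.07. Cyp4a8 gave opposite readings from its probes. The probe taken for the gene read between 4.62 and 5.17 on all 6 arrays and differed by -0.05 ± 0.17 (SE), and the other was on no array, between -8.13 and -6.77. Which of them reads Cyp4a8 transcript was not tested.

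Among steroid and sterol P450s no difference passed. Cyp11a1 cleaves the side chain of cholesterol in the mitochondrion, the first step of steroid hormone synthesis. It read 2.05, 1.20 and 1.47 in LETO against 1.35, 2.00 and 1.67 in OLETF, with full overlap and a difference of 0.10 ± 0.25 (SE). Among adrenal cortex markers, Mc2r, the corticotropin receptor, was on no array, Akr1b7, Hsd3b1 and Star were on 1, 2 and 3 arrays, and Nr5a1, Nr0b1, Scarb1, Fdx1 and Inha were on all 6, with none called. The summed signal of the list was 3.58 to 3.67 in LETO and 3.68 to 3.93 in OLETF. Most of it came from Fdx1, also a redox partner, with means of 3.43 in LETO and 3.68 in OLETF, so the sum mainly follows that gene. The part of adrenal transcripts in the Cyp11a1 values was not tested. Cyp11b3, Cyp17a1 and Cyp21a1, further steroid hydroxylases, differed by 0.01, -0.12 and -0.06, and Cyp27b1, which activates vitamin D, by -0.12. In the bile acid and oxysterol group, Cyp27a1, the sterol 27-hydroxylase of mitochondria, differed by 0.04 and Cyp7b1, the oxysterol 7-alpha-hydroxylase, by -0.17. Cyp8b1, the 12-alpha-hydroxylase of bile acid synthesis, read -4.47, -5.78 and -3.26 in LETO against -5.73, -5.37 and -6.12 in OLETF. The LETO arrays were spread over the widest range of any strain and tested P450 gene (SD 1.26), the strains overlapped, and the difference was -1.24 ± 0.58 (SE, adjusted p = 0.462). It was -0.62 without LETO 3, -1.88 without LETO 2 and -0.42 after normexp background correction and quantile normalization. The OLETF signals of Cyp8b1 lay near background, in or near the range of Cyp26a1.

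The CYP1 group had 1 detected gene. Cyp1b1, which oxidises oestradiol and aryl hydrocarbons and is known from vessel walls and fibroblasts, read -3.48, -4.67 and -3.57 in LETO against -4.21, -4.64 and -4.09 in OLETF. LETO 2 was the lowest of all and the strains overlapped, with a difference of -0.41 ± 0.32 (SE, adjusted p = 0.765). Without LETO 1, LETO 3 or OLETF 2 it was between -0.25 and -0.19, and without LETO 2 it was -0.79. Of 10 listed targets of the aryl hydrocarbon receptor outside the family, 8 were tested and none was called. Those with the smallest p were Gsta3, a glutathione transferase, at -1.15 (adjusted p = 0.0729), and Nqo1, a quinone reductase, at -0.23 (adjusted p = 0.541).

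**Figure D5:**
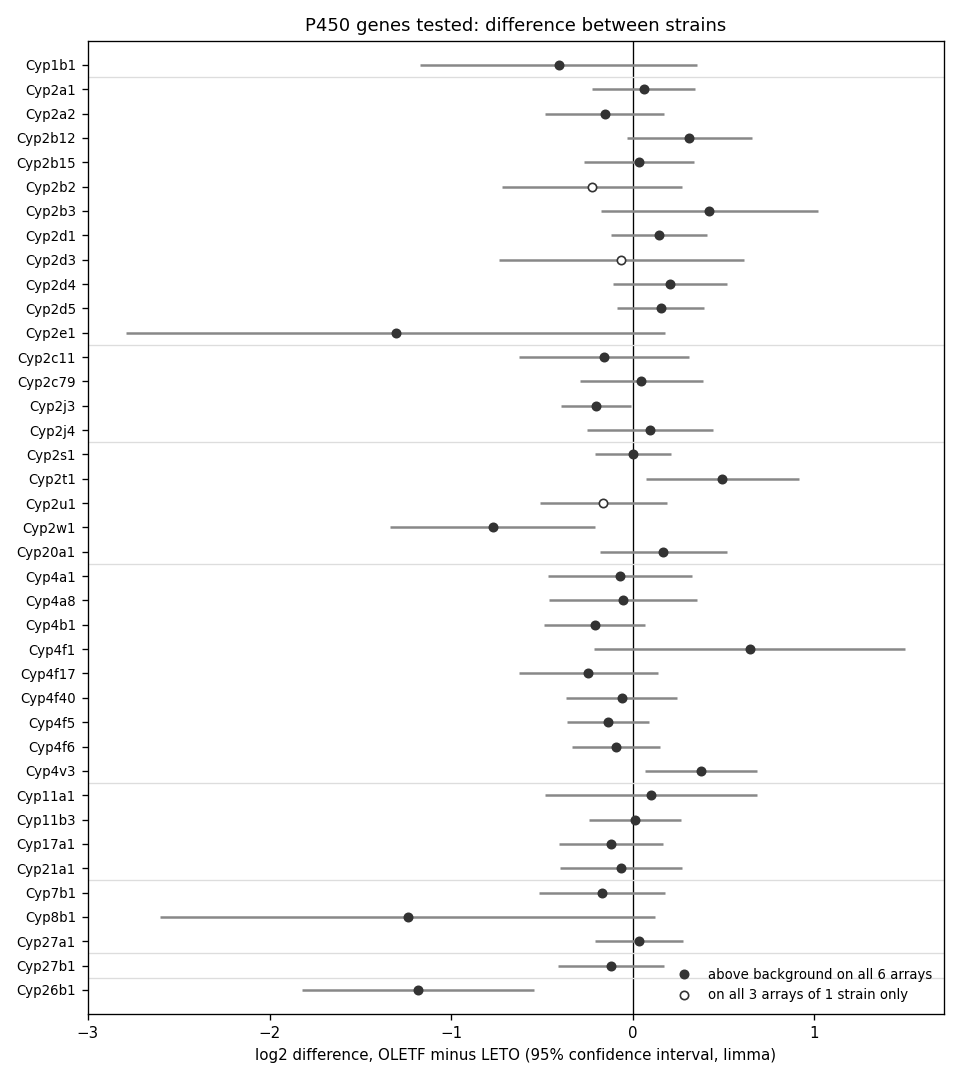
Difference in log2 signal, OLETF minus LETO (horizontal axis), of the 39 tested P450 genes (vertical axis, in role groups), each with its 95% confidence interval from limma. Filled points were well above background on all 6 arrays and open points on all 3 arrays of 1 strain only. Intervals of 7 genes reach beyond a 2-fold difference, among them Cyp26b1, Cyp2e1 and Cyp8b1.

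Over the 36 genes on all 6 arrays, 17 differences were positive and 19 negative, with a median of -0.06, against -0.01 over the 18064 genes tested that were on all 6 arrays. The strains did not overlap for 2 tested P450 genes, both lower in OLETF, or 5.13% of 39, where 17.4% of all tested genes did not overlap, 8.43% lower and 8.92% higher. That direction depends on the probe taken, since second probes of Cyp2j4, Cyp2d4 and Cyp4v3, with differences of 0.16, 0.28 and 0.51, also did not overlap and were higher in OLETF. The second Cyp2j3 probe did not overlap either and was lower in OLETF, at -0.58. That probe was on 3 LETO and 2 OLETF arrays and so kept through LETO alone, which favours a lower OLETF value. No share over all second probes is given here. For 29 of the 36 the 95% confidence interval lay within a 2-fold difference in either direction, and for 23 within 1.5-fold. The 7 others were Cyp1b1, Cyp26b1, Cyp2b3, Cyp2e1, Cyp2w1, Cyp4f1 and Cyp8b1, for which these 6 arrays do not exclude a 2-fold difference. The pooled SD of the replicates within a strain was above 0.5 for 4 of the 36 genes (Cyp2e1, Cyp8b1, Cyp4f1 and Cyp1b1), or 11.1%, against 2.41% of all genes on all 6 arrays, and its median was 0.197 against 0.142.

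The genes lie in groups along the chromosomes. Of the 74 genes with a position, 51 fell into 12 clusters of members less than 1 Mb apart, and 25 of those were tested. The cluster with most genes, at chr1:81008468-82233110, held 12 CYP2 genes, of which 8 were tested, with differences from -0.23 (Cyp2b2) to 0.49 (Cyp2t1). The 5 CYP2D genes lie at chr7:120741633-120798665, with 4 tested, and the 6 CYP4A, CYP4B and CYP4X genes at chr5:135496568-135922305, with 3 tested. None of the 3 CYP3A genes at chr12:9087179-9567200 was tested. Signal exceeded the 75th percentile on every array for 5 genes of the family (Cyp4a8, Cyp4f6, Cyp11a1, Cyp4f5 and Cyp2s1), and the share over all genes is not given here. Other probes of Cyp4a8 and Cyp2s1 read far lower. Probes differ too much in brightness for an order of abundance.

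The partner proteins and regulators of P450s were read from lists. Of 16 redox partners, counted with the heme enzymes Alas1, Fech, Hmox1 and Hmox2, 15 were tested and 1 was called. Cyb5b, the cytochrome b5 of the outer mitochondrial membrane, read 1.22, 0.75 and 0.93 in LETO against 1.94, 1.97 and 1.90 in OLETF, and it was higher by 0.97 ± 0.13 (SE, adjusted p = 0.0112). Its second probe differed by 0.05 and overlapped between strains, so the call rests on 1 probe, and the adjusted p was 0.0661 without OLETF 2, 0.0588 without OLETF 3, 0.173 with slide as a block, 0.0515 with no filter on dim probes and 0.120 for the mean of both probes. Por, the reductase that supplies microsomal P450s with electrons, differed by -0.08 and was chosen after its values were seen. Of 24 receptors that sense lipids and foreign chemicals, counted with partners and repressors such as Arnt, Ahrr and Nr0b2, 22 were tested and none was called. The smallest p among them belonged to Ppara, a fatty acid receptor, at 0.52 (adjusted p = 0.0803), and Nr0b2, a corepressor of bile acid synthesis, at 0.40 (adjusted p = 0.190).

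Of 24 eicosanoid genes outside the family, 21 were tested and 1 was called. Ptgds, the prostaglandin D synthase, was lower in OLETF by a difference of -0.78 ± 0.13 (SE, adjusted p = 0.0291), and the call held without OLETF 3 (adjusted p = 0.0485) and was lost without any other array. Of 22 listed phase II and export genes on the array, 18 were tested and Gstm2, a glutathione transferase, was called, with a difference of -0.93 ± 0.12 (SE, adjusted p = 0.0108), lost without OLETF 2 (0.0582) or OLETF 3 (0.0672). Of 22 steroid and sterol genes, 17 were tested and Lss, the lanosterol synthase, was called, at -0.60 ± 0.11 (SE, adjusted p = 0.0364), a call that held without LETO 2 (0.0345) and was lost without any other array. With slide as a block none of Cyb5b, Ptgds, Gstm2 and Lss passed. The P450s named otherwise differed by -0.05 (Cyp51, which demethylates lanosterol), -0.31 (Ptgis, the prostacyclin synthase) and -0.08 (Tbxas1, the thromboxane synthase), with no call.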

How the data were processed

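Ventricular RNA of 3 LETO and 3 OLETF rats was hybridised to Agilent Rat GE arrays. Per the file headers, the authors' scanner files were made with Feature Extraction 10.7.3.1 (the submitters' processing notes name version 9.1), hold spot intensity with background subtracted, and place probes on rn4. The deposited value table holds the same intensity divided by a constant of each array, with column medians between 0.154 and 0.163. It is on a linear scale, was not centred, and served as an alternative.

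Control and outlier spots (260 to 356 per array) were left out, spots of a probe were averaged as log2 values, and the array's 75th percentile over probes was subtracted. A probe was tested if well above background on all 3 arrays of a strain, and the tested probe of highest mean signal stood for its gene. This left 18816 genes. limma 3.58.1 in R 4.3.3 (lmFit, eBayes) was used with Benjamini-Hochberg adjustment at 0.05, and Python 3.11.15, pandas 2.3.3, numpy 2.4.6, matplotlib 3.10.9 and data.table (version 1.17.8) for reading, tables and figures. Precision is limited by the number of arrays. The labels speak of independent experiments, and p-values measure the spread between these samples.

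Every tested P450 gene was named. Genes seen on some arrays were named with the number of arrays, and from each other list up to 4 called genes were named, or the 2 with the smallest p. Members and lists were chosen with earlier results of these data known, and the role groups after the values were seen. In a simulation of 18816 genes on 3 arrays a strain, 36% of genes changed 1.5-fold, 84% of those changed 2-fold and 98% of those changed 4-fold or 8-fold were recovered, with 12 unchanged genes called. Alternatives were other normalizations, filters, probe rules, array weights, slide or replicate number as a block, age as a covariate, and leaving out each array. The label of LETO 2 carries 2 replicate numbers, and the title's was used.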

Additional observations from a re-analysis of the deposited data

How the results depend on the processing

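Of 20 alternatives, 18 gave no called P450 gene, among them all 6 that left out 1 array. Array weights, which gave LETO 1 a weight of 0.205, gave 2 higher (Cyp4v3 at 0.48, adjusted p = 0.0334, and Cyp2t1 at 0.55, adjusted p = 0.0490) and 2 lower P450 genes (Cyp26b1 at -1.51, adjusted p = 0.00999, and Cyp2w1 at -0.87, adjusted p = 0.0397), or 10.3% of 39 where 9.03% of all genes were called (875 higher and 825 lower). Age as a covariate gave 1 higher P450 gene, Cyp2b3 at 0.64 (adjusted p = 0.0460). Over the alternatives the adjusted p (limma) of Cyp26b1 ran from 0.00999 to 0.287 and its difference from -1.57 to -0.97. Of 777 values of tested P450 genes under alternatives, 725 kept the sign of the reported difference, and the 52 others fell in 19 genes.

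Of all genes, 283 higher and 197 lower became 149 and 91 without a filter on dim probes and 52 and 53 with slide as a block. Cyb5b, Ptgds and Lss also missed the threshold without that filter, and Ptgds and Lss with age as a covariate and with the replicate block. Leaving out 1 array gave 126 to 375 higher and 87 to 239 lower genes. With the replicate number as a block, 166 genes were higher and 135 lower, and no P450 gene was called. The labels give no pairing of the rats. Deviations of same-numbered arrays correlated at -0.09, -0.14 and -0.01, which cannot exclude pairing with so few arrays a strain. The cause of these changes was not tested. Median differences and detection counts stayed within the spread between arrays or 1.5 times under every alternative run. The 75th percentile over spots was added after seeing the data. The limits are 3 arrays per strain, the unequal split of strains over slides, dim probes near background, and related transcripts that share probe sequence.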
